A study of Mus musculus with 20 samples.

Results

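The genes described here are the 78 mouse genes named Mrpl or Mrps with a number, the mitochondrial ribosomal protein genes, of 14700 genes measured in the series. Membership was set by symbol in all 4 deposited tables, with earlier results of these data known. Each of the 78 was present in every table. There were 49 Mrpl genes, named for the large subunit, and 29 Mrps genes, named for the small subunit. Total RNA was sequenced in 20 libraries from mouse cortical neurons, isolated at embryonic day 15 and kept in culture for 7 days. Cultures were either wild type (WT) or lacked, as a knockout (KO), ciRS-7, a circular RNA of the Cdr1as locus, and the same strain label, C57BL/6N-Cdr1asem1Nikr, was given to both genotypes. They were held for 12 h either in normoxia (N) with glucose at 25 mM and pyruvate at 0.2 mM, or in oxygen-glucose deprivation (OGD), with 1% oxygen and no added glucose, a culture model of ischemia. The 4 groups are written N_WT, N_KO, OGD_WT and OGD_KO, and 5 libraries stood for each, from cultures labelled WT1 to WT5 and KO1 to KO5.

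The mitochondrial ribosome translates the few messages of the mitochondrial genome, all of which encode core subunits of the respiratory chain and ATP synthase. Its RNAs, 12S (mt-Rnr1) and 16S (mt-Rnr2), are transcribed inside the organelle, while all of its proteins are encoded in the nucleus, made on cytosolic ribosomes and imported. Some of these proteins descend from bacterial ribosomal proteins and others are found only in mitochondria, and neurons depend on the respiratory chain for most of their energy. By that division the 78 genes held 30 large subunit proteins with a bacterial counterpart, 21 that are mitochondria specific, 16 small subunit proteins with a bacterial counterpart and 10 that are mitochondria specific. Symbols do not always give the place of a protein: the products of Mrps30 and Mrps18a sit in the large subunit and were counted there. The product of Mrps36 is a subunit of the 2-oxoglutarate dehydrogenase complex and was counted apart.

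The libraries and labels were checked before any change was read. Levels are in log2 CPM, counts scaled by a factor for each library and put on a log2 scale. The scaling is that of the deposited values and did not bring libraries to the same total of recovered counts. For culture KO4, 1 count stood for 0.118 CPM under OGD (8973184 counts recovered) and for 0.104 CPM in normoxia (8997922 counts). The 5 normoxic WT libraries held Cdr1as at 6.63 ± 0.13 (SD, n = 5) and the normoxic KO libraries at 0.31 ± 0.48 (SD, n = 5). The glucose transporter gene Slc2a1 was 3.95 higher on the log2 scale in OGD_WT than in N_WT and 3.50 higher in OGD_KO than in N_KO. The counts recovered per library ranged from 7071506 to 16658617. All 13 neuron markers were measured, none of the 9 microglia markers was in the tables, and 9 of 10 astrocyte markers and all 10 proliferation markers were measured. The values were not those of independent libraries. For 9186 genes with a mean count over 100, libraries of 1 batch label averaged to their group means: the variance of the batch mean was between 0.044 and 0.388 of what independent libraries would give. WT3 and KO3, each alone in its batch label, lay close to their group means, with SDs of 0.08 to 0.132 against 0.269 to 0.425 for libraries of batches 3.1 and 3.3. Libraries of batch 1 (WT1 and KO1) had SDs of 0.129 to 0.144. No label states a batch adjustment, and counts of calls are also given without WT3 and KO3.

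The members were expressed at modest levels. Together they took 0.0961% to 0.132% of the recovered counts of a library, while 16S rRNA alone took 10.1% to 32%. Their mean on a joint scale of all libraries ran from 1.82 CPM for Mrpl36 to 73.1 CPM for Mrpl18, whose protein belongs to the central protuberance of the large subunit. Per kilobase of annotated exon, the highest was Mrpl52 at 55.7 CPM and the lowest Mrpl32 at 1.24 CPM, with a median of 4.33 CPM over the 78 genes. The median gene had 135.5 counts per library. Within a group, the SD of a member's log2 CPM had a median of 0.23 in the WT table and 0.24 in the KO table.

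Under OGD the mitochondrial ribosomal protein genes did not move as a block, in either genotype. In wild type neurons 6 of 78 rose and 12 fell, or 23.1% of the members, against 44.3% of all 14235 genes tested (21.6% higher, 22.8% lower; limma, Benjamini-Hochberg adjusted p under 0.05, two-sided). In knockout neurons 9 rose and 8 fell, or 21.8%, against 40.9% of 14375 genes (21% higher, 19.9% lower). An unadjusted p under 0.05 was seen for 25 members in WT, against 51.4% of all genes, and for 24 in KO, against 49.5%. Groups did not overlap for 14 members in WT, against 26.9% of all genes, and for 11 in KO, against 25.8%. The median log2 fold change of the members was -0.06 in WT, beside -0.03 for all genes, and 0.01 in KO, beside 0.00. For 69 members in WT and 68 in KO the change was under 0.5 in size, or 88.5% and 87.2%, against 62.8% and 64.2% of all genes. Counts of calls followed the libraries used. Without WT3 the WT count was 7 (2 higher, 5 lower, against 30.3% of all genes), and without KO3 the KO count was 7 (4 higher, 3 lower, against 28% of all genes). With the 5 batch labels as terms both counts were 13, against 34.7% of all genes in WT and 33.2% in KO.

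**Figure D1:**
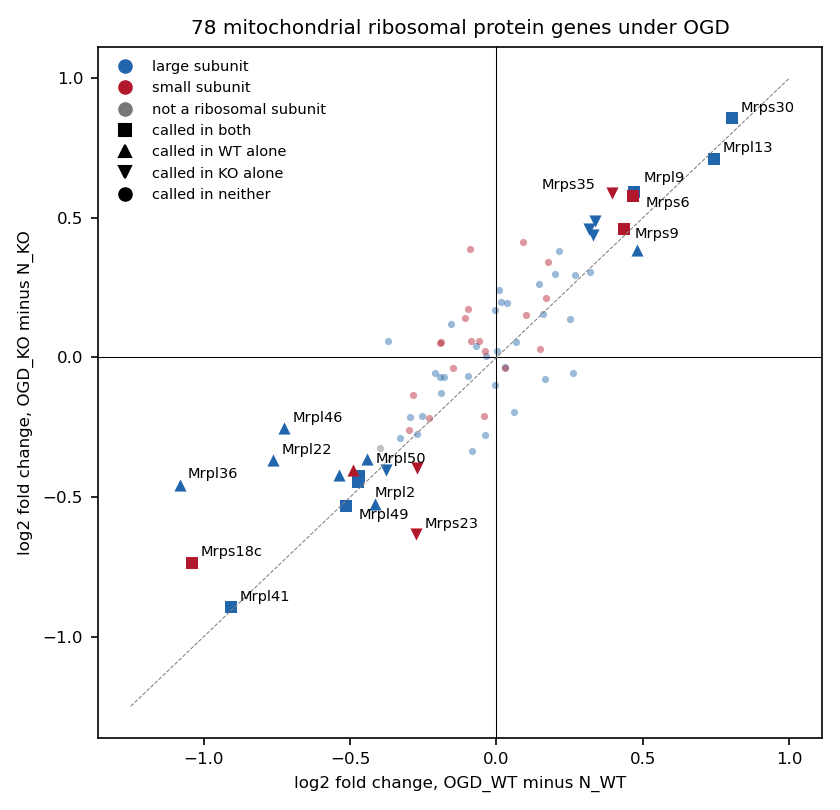
Each point is 1 of the 78 genes, with its log2 fold change under OGD in wild type on the x axis and in knockout neurons on the y axis; colour gives the subunit of the protein and shape the call. The 10 genes called in both genotypes (squares) lie near the dashed line of equal change, 5 above 0 and 5 below, and the 53 genes called in neither lie around 0.

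The calls of the genotypes overlapped in part. Of the 18 members called in WT and the 17 called in KO, 10 were called in both, which is 55.6% of the WT calls and 58.8% of the KO calls. The rises called in both were Mrps30, Mrpl13, Mrpl9, Mrps6 and Mrps9, and the falls called in both were Mrpl41, Mrps18c, Mrpl49, Mrpl2 and Mrpl50. The 8 members called in WT alone and the 7 called in KO alone had the same sign in the other genotype. Overlap and shared signs were not computed over all genes, so neither can be read as particular to the members. The WT and KO comparisons share no library, but batches 1, 3.1 and 3.3 each held cultures of both genotypes. The batch adjustment seen in the values was not undone, so the comparisons are not independent of each other.

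Mrps30, whose product is a mitochondria-specific protein of the large subunit despite its symbol, had the largest rise in both genotypes. It lies on chromosome 13 (118378381 to 118387252, minus strand, GRCm38). In the 5 N_WT libraries it was at 4.29, 4.82, 4.90, 5.02 and 5.13 log2 CPM, and in the 5 OGD_WT libraries at 5.53, 5.55, 5.63, 5.64 and 5.83. The groups did not overlap. In N_KO it ranged from 4.40 to 4.94 and in OGD_KO from 5.22 to 5.79, again apart. The log2 fold change was 0.80 ± 0.16 (SE) in WT (limma adjusted p = 0.000309) and 0.86 ± 0.15 in KO (limma adjusted p = 0.000167). Its exons overlap those of B430218F22Rik on the other strand. Such an overlap with a gene on the other strand was found for 28 members, among them the called Mrpl9, Mrpl10, Mrpl13, Mrpl36, Mrpl46, Mrpl49 and Mrpl58.

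Mrpl13, the counterpart of a conserved bacterial large subunit protein, rose next most. N_WT libraries lay at 3.80, 3.93, 3.99, 4.09 and 4.11 log2 CPM and OGD_WT libraries at 4.55, 4.57, 4.61, 4.79 and 5.14. Knockout libraries lay between 3.69 and 4.18 in normoxia and between 4.33 and 4.92 under OGD. In neither genotype did the groups overlap, and all 5 cultures of each were higher under OGD. The log2 fold change was 0.75 ± 0.15 in WT (limma adjusted p = 0.000371) and 0.71 ± 0.15 in KO (limma adjusted p = 0.00102).

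The other rises common to both genotypes were smaller. Mrpl9, a conserved large subunit protein, rose by 0.47 in WT, where 1 OGD library (3.63) lay inside the normoxia range of 3.25 to 3.64, and by 0.59 in KO, where the groups were apart. Mrps9, a conserved protein of the head of the small subunit, rose by 0.44 and 0.46 with the groups apart in both. Mrps6, of the small subunit platform, rose by 0.47 and 0.58, also with the groups apart. The exons of Mrps6 overlap on the same strand with Slc5a3, an osmotically regulated inositol transporter gene, so counts could be shared between the 2 genes. Without WT3 none of Mrpl9, Mrps6 and Mrps9 was called in WT, and without KO3 Mrps9 was not called in KO.

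Mrpl41, a mitochondria-specific protein of the large subunit, fell by similar amounts in both genotypes. It lies on chromosome 2 (24974117 to 24975098, minus strand, GRCm38). In N_WT its libraries were at 3.89, 4.06, 4.15, 4.16 and 4.41 log2 CPM and in OGD_WT at 3.02, 3.08, 3.21, 3.34 and 3.48. In N_KO they were at 4.07, 4.14, 4.21, 4.25 and 4.37, and in OGD_KO at 3.13, 3.21, 3.25, 3.43 and 3.53. Every OGD library was below every normoxia library of its genotype. The gene fell by 0.91 ± 0.15 on the log2 scale in WT (limma adjusted p = 5.37e-05) and by 0.90 ± 0.14 in KO (limma adjusted p = 5.67e-05).

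Mrps18c encodes the small subunit protein that corresponds to bacterial S18, and it fell by 1.04 ± 0.17 in WT (limma adjusted p = 4.18e-05) and by 0.74 ± 0.19 in KO (limma adjusted p = 0.00431). In WT the libraries were at 2.40, 2.52, 2.53, 2.57 and 2.63 log2 CPM in normoxia and at 1.08, 1.39, 1.57, 1.62 and 1.79 under OGD. In KO the ranges were 2.08 to 2.53 and 1.06 to 2.10, so the groups were apart in WT and overlapped slightly in KO. Its level was low, with 13 to 87 counts per library, and 19.2% of its 50-base words occur in other genes. Its exons overlap those of Gm43511 on the same strand, so counts could be shared. The other 2 genes named Mrps18 did not pass the test. Mrps18a, of the large subunit, had log2 fold changes of -0.01 and 0.17, and Mrps18b, of the small subunit, -0.19 and 0.05. Mrps18c was thus the 1 gene of these 3 that was called, and the difference between them was not tested.

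Mrpl49 and Mrpl50, both mitochondria-specific large subunit proteins, fell by 0.51 and 0.47 in WT and by 0.53 and 0.42 in KO. Mrpl2, the counterpart of bacterial L2 near the catalytic centre of the ribosome, fell by 0.47 and 0.45. For all 3 genes the groups were apart in both genotypes. In WT Mrpl50 was between 4.67 and 4.82 log2 CPM in normoxia and between 3.85 and 4.56 under OGD. Without WT3 none of the 3 was called in WT, and without KO3 only Mrpl49 of the 3 was called in KO. With batch as a covariate, labels 3.1, 3.2 and 3.3 joined as batch 3, neither Mrpl2 nor Mrpl50 was called in KO. Mrpl2 had 19 to 88 counts per library. With the culture number as a block Mrpl2 was not called in KO.

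**Figure D2:**
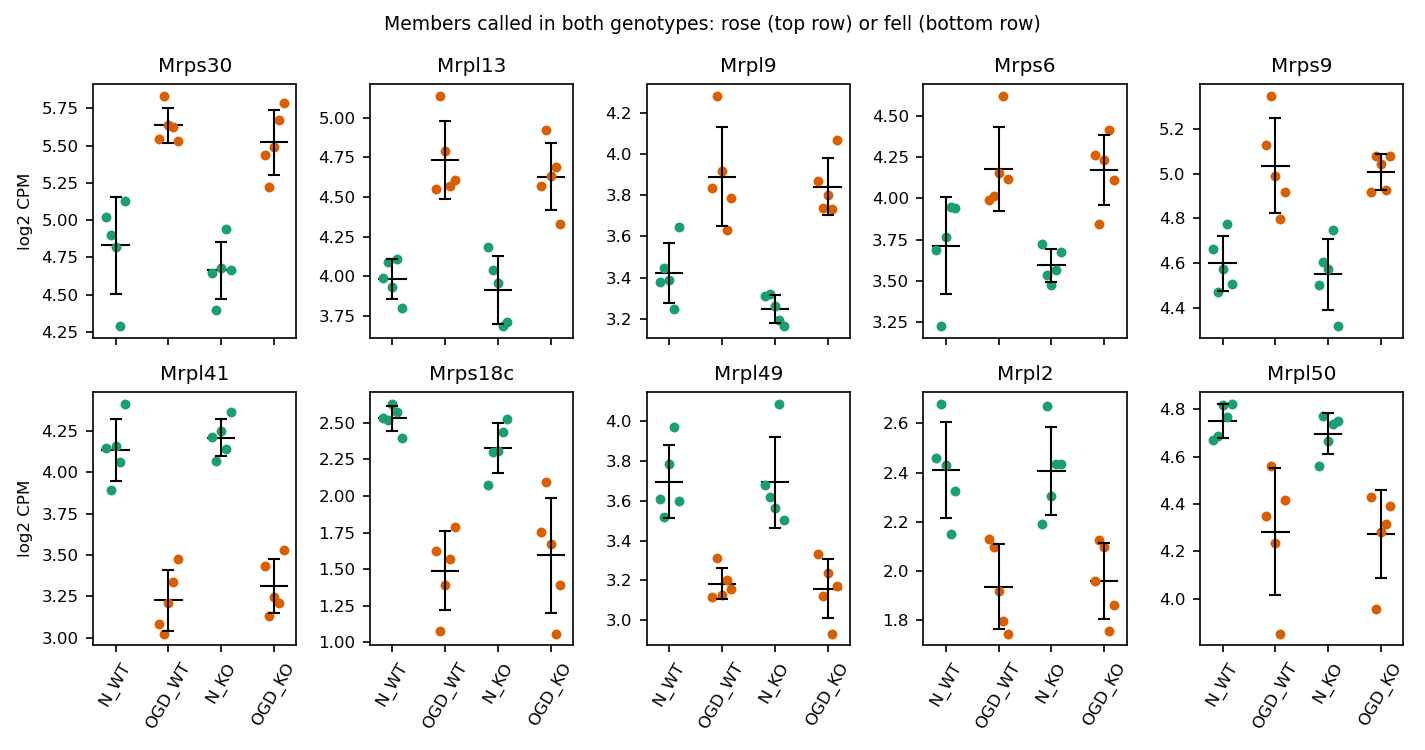
Log2 CPM of the 10 genes called in both genotypes, with 1 point per library (green normoxia, orange OGD), the mean as a horizontal line and the SD as error bars (n = 5). WT and KO values come from separately normalized tables; OGD libraries sit above normoxia in the upper row and below it in the lower row, with Mrpl9 in WT and Mrps18c in KO overlapping.

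The members called in 1 genotype alone included some of the largest WT changes. Mrpl36, a small zinc-binding protein of the large subunit, fell by 1.08 ± 0.22 in WT (limma adjusted p = 0.000487). Its N_WT libraries were at 0.86, 1.20, 1.65, 1.72 and 1.77 log2 CPM and its OGD_WT libraries at -0.08, 0.03, 0.54, 0.64 and 0.66. The groups were apart at 6 to 40 counts per library, the lowest level of the 78 genes. In KO its log2 fold change was -0.46 ± 0.18 (limma adjusted p = 0.0551), with overlapping groups. Mrpl22, at the exit of the peptide tunnel, fell by 0.76 in WT and had -0.37 in KO (limma adjusted p = 0.178), and 22.4% of its 50-base words occur in other genes. Mrpl46, of the central protuberance, fell by 0.72 in WT and had -0.25 in KO (limma adjusted p = 0.202). None of these differences between the genotypes passed its own test, as given below for the interaction.

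The remaining WT calls were smaller. Mrpl57 fell by 0.54, Mrps12 by 0.49, Mrpl55 by 0.44 and Mrpl58 by 0.42. Mrps12 is the small subunit protein of the decoding site. Mrpl58 is a peptidyl-tRNA hydrolase that became part of the large subunit, and its KO value was -0.52 (limma adjusted p = 0.0525). Mrpl45, which helps to hold the ribosome at the inner membrane, rose by 0.48 with overlapping groups. Of these 5, none was called in WT without WT3. Mrpl55 was not called with the culture number as a block.

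In KO alone, Mrps35 rose by 0.59 ± 0.15 and Mrps23 fell by 0.63 ± 0.20, both mitochondria-specific small subunit proteins. Their WT values were 0.40 (limma adjusted p = 0.102) and -0.28 (limma adjusted p = 0.203). Mrpl30 rose by 0.49, Mrpl52 by 0.46 and Mrpl32 by 0.44, and Mrpl10, a stalk protein of the large subunit, and Mrps17 each fell by 0.40. None of these 7 was called in KO without KO3. With the culture number as a block, Mrpl10, Mrpl30, Mrpl32 and Mrps17 were also not called. Mrps36, of the 2-oxoglutarate dehydrogenase complex, had values of -0.40 in WT and -0.33 in KO and passed in neither (limma adjusted p = 0.0606 and 0.076), with all 5 cultures lower in each.

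By role, calls came from both subunits and both origins in WT. Of 30 large subunit members with a bacterial counterpart 2 rose and 4 fell, and of 21 mitochondria-specific ones 2 rose and 6 fell. Among 16 small subunit members with a bacterial counterpart 2 rose and 2 fell, and none of 10 mitochondria-specific ones was called. These are 20%, 38.1%, 25% and 0% of the sets, against 44.3% of all genes. In KO the counts were 4 and 2, 2 and 3, 2 and 2, and 1 and 1, in the same order. The shares were 20%, 23.8%, 25% and 20%, against 40.9% of all genes. Medians of the 4 sets ranged from -0.12 to -0.01 in WT and from -0.06 to 0.06 in KO.

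Length and level went with the direction of the calls. The 15 that fell in either genotype had a median of 1415 exon bases and 6.7 CPM, the 10 that rose 4104 bases and 17.4 CPM, and the 53 called in neither 2550 bases and 11.7 CPM. Per kilobase the medians were 4.08 CPM for those that fell and 5.00 CPM for those that rose. These are annotated exon lengths summed over all transcripts of a gene, and the part of length in the calls was not tested.

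Scaling sets where 0 lies. When libraries were brought to the same total of recovered counts, an alternative chosen after the share of 16S rRNA was seen, the median of all genes moved from -0.03 to -0.30 in WT and from 0.00 to -0.28 in KO. The members moved with it, to medians of -0.34 and -0.27. Under that scaling 2 members were called higher and 32 lower in WT, against 51.8% of all genes called, and 2 higher and 24 lower in KO, against 47.1%. Mrps30 and Mrpl13 were still called higher and Mrpl41 and Mrps18c still called lower in both genotypes, as under each of the 12 alternatives and each omission of 1 library.

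**Figure D3:**
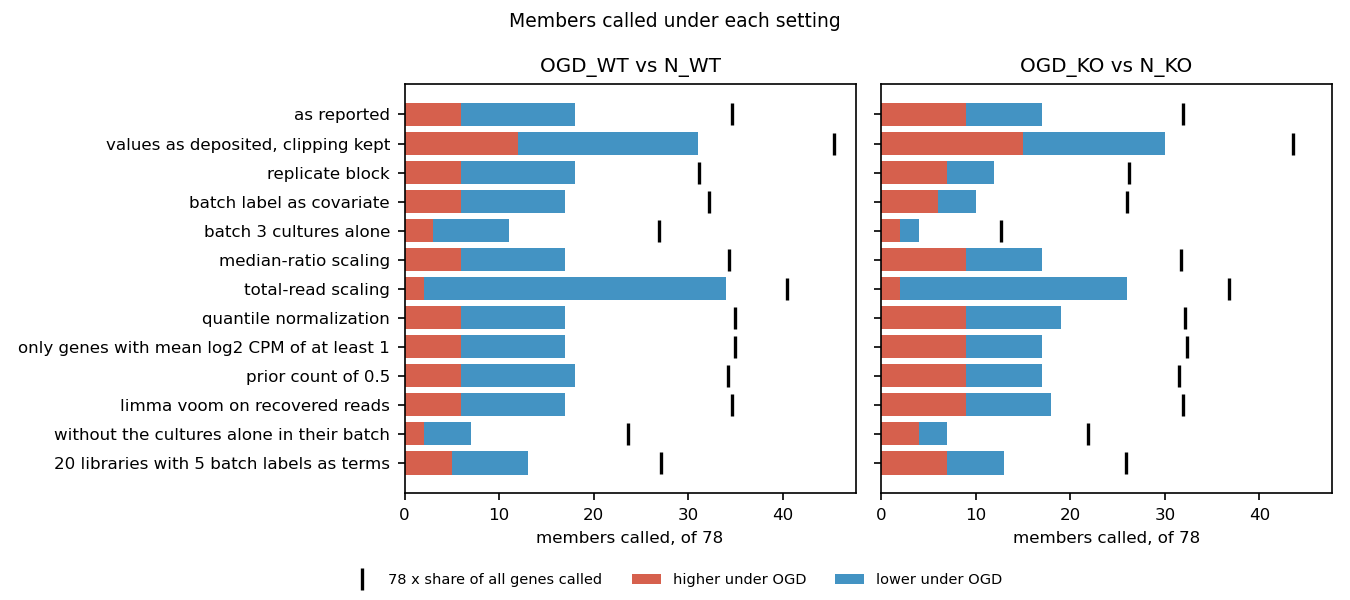
Bars give the number of the 78 genes called higher (red) and lower (blue) under OGD for each way of processing, and the black mark is 78 times the share of all genes called under it. In every row the bars end to the left of the mark, and total-read scaling gives 2 higher and 32 lower in WT.

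Genes of the cytosolic ribosome rose together in the same libraries. Of 79 cytosolic ribosomal protein genes (Rpl and Rps), 74 rose and 1 fell in WT, with a median log2 fold change of 0.74, and 76 rose and 1 fell in KO, with a median of 0.80. These are 94.9% and 97.5% called, against 44.3% and 40.9% of all genes. Rps4x rose by 1.00 and Rpl7 by 0.98 in WT, and Rpl36 rose by 1.10 and Rps9 by 1.09 in KO. The exception was Rps4l, which fell by 0.92 in WT and by 0.61 in KO. With libraries brought to the same total, 56 of the 79 in WT and 57 in KO were still called higher, with medians of 0.47 and 0.52, against -0.34 and -0.27 for the mitochondrial members. Without WT3 and KO3 the counts called higher were 66 and 69 of 79.

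The RNAs of the mitochondrial ribosome itself rose. In N_WT 16S rRNA (mt-Rnr2) was at 16.44, 16.61, 16.75, 16.80 and 16.99 log2 CPM and in OGD_WT at 17.17, 17.78, 17.90, 17.92 and 18.14. KO libraries were between 16.45 and 17.23 in normoxia and between 17.60 and 18.62 under OGD, and the groups were apart in both genotypes. It rose by 1.07 ± 0.24 in WT (limma adjusted p = 0.00135) and by 1.05 ± 0.40 in KO (limma adjusted p = 0.0447). 12S rRNA (mt-Rnr1) rose by 0.71 in WT (limma adjusted p = 0.00403) and by 0.83 in KO (limma adjusted p = 0.0178), also with the groups apart. Without KO3 neither RNA was called in KO (limma adjusted p = 0.16 for 16S and 0.0932 for 12S), and without WT3 12S was not called in WT (limma adjusted p = 0.053). With the culture number as a block 16S was not called in KO (limma adjusted p = 0.126). Under total-read scaling 16S in WT was the 1 call left of these 4, at 0.79. Quantile normalization, which gives the top ranks of every library nearly the same value, put 16S at 0.00 in both genotypes and 12S at -0.13 in WT and -0.07 in KO. As shares of recovered counts, 16S took 12% ± 1.52 (SD, n = 5) of a normoxic WT library, and under OGD 20.9% ± 4.21 (SD, n = 5).

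**Figure D4:**
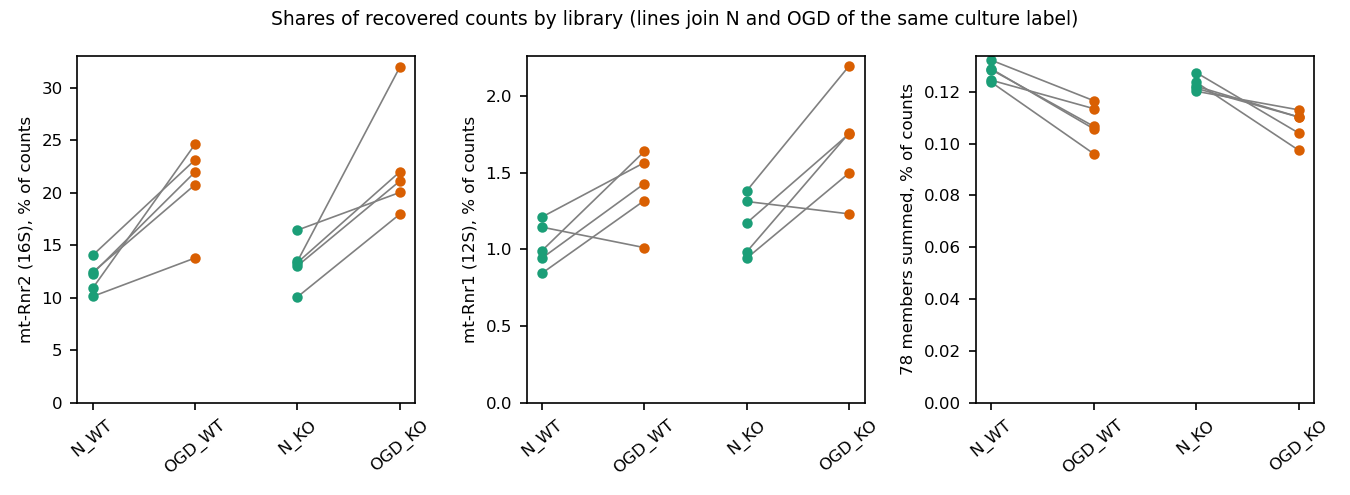
Percent of the recovered counts of a library taken by 16S rRNA (left), 12S rRNA (middle) and the 78 members together (right), from 0; lines join the normoxia and OGD libraries with the same culture label. 16S rises in all 10 cultures, 12S in 8 of 10, and the summed share of the members falls in all 10.

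Messages of the mitochondrial genome, the templates of this ribosome, were mostly higher as well. Of 13 protein genes 7 rose and 1 fell in WT, with a median of 0.44, and 7 rose in KO, with a median of 0.54, or 61.5% and 53.8% called against 44.3% and 40.9% of all genes. Without WT3 and KO3 5 rose in each genotype, and under total-read scaling 4 in WT and 5 in KO. In WT mt-Co2, a subunit of cytochrome c oxidase, rose by 1.21 and mt-Nd4l by 1.04, while mt-Nd3 fell by 0.81, the last 2 being complex I subunits. In KO mt-Atp6 rose by 1.28 and mt-Atp8 by 1.03, both of ATP synthase. Libraries were of total RNA, so RNA that is not polyadenylated was also counted.

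Among 5 mitochondrial ribosomal proteins whose symbols fall outside the naming rule, 1 was called. Aurkaip1, a small subunit protein, rose by 0.56 ± 0.15 in WT (limma adjusted p = 0.00554) and by 0.55 ± 0.16 in KO (limma adjusted p = 0.0113), with the groups apart in WT. Its call was lost under total-read scaling, with values of 0.28 and 0.26, and in KO without KO3 (0.54, limma adjusted p = 0.057). Dap3, a GTP-binding protein of the small subunit head, had values of 0.11 and 0.11, and Ptcd3, of the small subunit, -0.12 and -0.17. Chchd1 had -0.02 and 0.12, and Gadd45gip1, of the large subunit, 0.25 and 0.10.

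Factors that build the mitochondrial ribosome were called in both directions, most of them lower. Of 27 assembly factors 2 rose and 10 fell in WT, with a median of -0.25, and 1 rose and 7 fell in KO, with a median of -0.12. These are 44.4% and 29.6% of the factors, against 44.3% and 40.9% of all genes. Mrm1 and Mrm2, methyltransferases of 16S rRNA, fell by 1.03 and 0.86 in WT, and Mrm1 fell by 1.02 and the nuclease Ybey by 0.93 in KO. Mettl17 rose by 0.63 and 0.56, and Mettl15, a 12S methyltransferase, by 0.45 in WT. Without WT3 and KO3 the counts that fell were 6 and 5, and under total-read scaling 14 and 11. Whether the assembly factors differ from the ribosomal proteins was not tested.

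**Figure D5:**
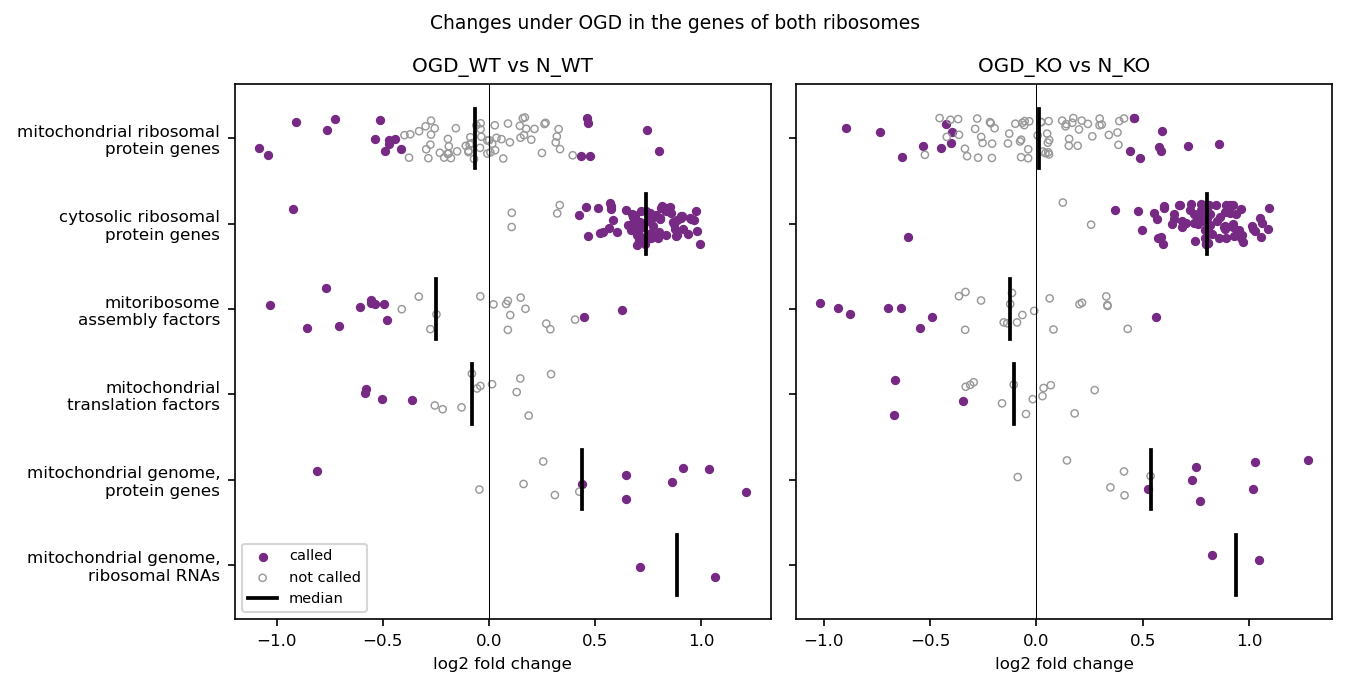
Log2 fold change under OGD of every gene in 6 groups, in WT (left) and KO (right); filled points are called, open points are not, and the black bar is the median of the group. The cytosolic ribosomal protein genes lie around 0.74 and 0.80, while the mitochondrial ones spread on both sides of 0.

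Of 15 mitochondrial translation factors none rose and 4 fell in WT, and none rose and 3 fell in KO, or 26.7% and 20% against 44.3% and 40.9% of all genes. The counts that fell were 1 and 2 without WT3 and KO3, 2 and 1 with batch terms, and 7 and 6 under total-read scaling. The elongation factor gene Tsfm fell by 0.58 and 0.67, and Taco1, a translational activator of cytochrome c oxidase, by 0.58 and 0.67. Of 12 regulators of mitochondrial transcription and biogenesis, 4 rose and 2 fell in WT and 5 rose in KO, or 50% and 41.7%. Without WT3 and KO3, 4 rose and 1 fell in WT and 3 rose in KO, and under total-read scaling 3 rose and 3 fell in WT and 1 rose and 2 fell in KO. Yy1 rose by 0.86 and 0.92 and Gabpa, the DNA-binding subunit of an ETS factor, by 0.67 and 0.63. Nrf1, a regulator of nuclear genes for mitochondrial proteins, rose by 0.58 and 0.48. Tefm and Tfam, which act in transcription of the mitochondrial genome, fell by 0.68 and 0.47 in WT. In KO their values were -0.70 and -0.36 and did not pass (limma adjusted p = 0.0574 and 0.0785).

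Cell type and growth markers moved with the treatment too. The summed level of the 13 neuron markers was 7349 to 8430 CPM in N_WT and 3833 to 6043 in OGD_WT, and 7642 to 7829 in N_KO and 3408 to 5264 in OGD_KO. Of these 13 genes none rose, while 6 fell in WT and 7 in KO, among them the vesicular glutamate transporter gene Slc17a7, by 1.69 and 1.62. These are 46.2% and 53.8% of the markers, against 44.3% and 40.9% of all genes. The counts that fell were 4 and 5 without WT3 and KO3, and 11 and 11 under total-read scaling. The 9 astrocyte markers summed to 1570 to 2197 CPM in N_WT and 1927 to 2715 in OGD_WT, with 5 higher and 1 lower in WT and 4 higher in KO (5 and 3 higher without WT3 and KO3, 4 and 2 under total-read scaling). Calls were 66.7% and 44.4% of the astrocyte markers, against 44.3% and 40.9% of all genes. In both genotypes all 10 proliferation markers rose, of which 9 in WT and 8 in KO were called without WT3 and KO3, and 8 in each under total-read scaling. The part of these shifts in the changes of the members was not tested, and in bulk samples fewer cells of a type and less RNA per cell cannot be told apart.

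The stretches upstream of 5 members are given as examples, chosen without a set rule, and do not stand for all falling or rising genes. The sequences are from RefSeq (GRCm38.p6), of at most 250 bases before the annotated start and without annotated exons, given 5′ to 3′ on the strand of the gene. Capitals mark any of 6 motifs searched on both strands: the NRF1 core GCGCATGC, the ETS core CCGGAAG, the YY1 core AAGATGGCG, the hypoxia response cores ACGTG and GCGTG, and the E-box CACGTG, which contains ACGTG. Mrpl41 and Mrpl2 were called lower in both genotypes and Mrpl22 in WT alone, and Mrps9 and Mrpl9 were called higher in both.
Mrpl41, chr2:24975099-24975348, minus strand: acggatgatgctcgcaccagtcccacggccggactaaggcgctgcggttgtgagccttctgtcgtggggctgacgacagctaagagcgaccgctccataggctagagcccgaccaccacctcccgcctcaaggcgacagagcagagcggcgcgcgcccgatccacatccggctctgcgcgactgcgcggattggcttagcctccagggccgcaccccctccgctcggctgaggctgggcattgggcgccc
Mrpl2, chr17:46646023-46646220, plus strand: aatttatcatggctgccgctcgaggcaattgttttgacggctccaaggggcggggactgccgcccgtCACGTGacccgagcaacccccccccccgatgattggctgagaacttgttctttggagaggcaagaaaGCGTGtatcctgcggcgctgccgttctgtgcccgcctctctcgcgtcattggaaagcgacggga
Mrpl22, chr11:58171414-58171660, plus strand: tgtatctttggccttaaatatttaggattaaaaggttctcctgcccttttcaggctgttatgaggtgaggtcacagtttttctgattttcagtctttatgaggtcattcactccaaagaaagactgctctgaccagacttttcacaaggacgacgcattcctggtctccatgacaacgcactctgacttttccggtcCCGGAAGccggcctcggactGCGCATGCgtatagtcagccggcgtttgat
Mrps9, chr1:42850983-42851232, plus strand: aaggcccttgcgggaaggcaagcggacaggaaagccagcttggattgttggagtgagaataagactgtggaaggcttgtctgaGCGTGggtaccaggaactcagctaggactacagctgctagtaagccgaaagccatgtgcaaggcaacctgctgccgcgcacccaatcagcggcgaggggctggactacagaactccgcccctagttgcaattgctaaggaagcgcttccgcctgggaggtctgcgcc
Mrpl9, chr3:94443086-94443317, plus strand: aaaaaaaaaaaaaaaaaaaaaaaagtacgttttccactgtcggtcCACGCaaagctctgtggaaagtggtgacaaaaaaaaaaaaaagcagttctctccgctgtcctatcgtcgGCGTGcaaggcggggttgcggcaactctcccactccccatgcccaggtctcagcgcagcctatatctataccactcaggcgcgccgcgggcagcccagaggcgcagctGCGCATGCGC

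Mrpl41 held none of the motifs, Mrpl2 an E-box and GCGTG, Mrpl22 an ETS and an NRF1 core, Mrps9 GCGTG, and Mrpl9 an NRF1 core and GCGTG. A promoter of 300 bases (250 before and 50 after the start, the first start listed) was found for 69 of the 78 members. The ETS core was in 25 of them (36.2%), against 18.3% of 10147 genes tested in WT that have a promoter and 9.12% of all 27025 promoters. The NRF1 core was in 8 (11.6%), against 5.67% and 2.8%, and the YY1 core in 8 (11.6%), against 3.28% and 1.49%. Any of the 3 was in 35 members (50.7%), against 25.2% of genes tested. ACGTG was in 15 (21.7%), against 26.2% of genes tested, and GCGTG in 37 (53.6%), against 52.9%. These are matches of letters, not binding sites.

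The numbers of members that rose and fell are small, and their promoters were not compared by a test. An ETS, NRF1 or YY1 core was in 3 of 8 promoters of members called higher in either genotype, in 8 of 15 of those called lower and in 24 of 46 of those called in neither. In the same order, ACGTG was in 0 of 8, 5 of 15 and 10 of 46, and GCGTG in 7 of 8, 7 of 15 and 23 of 46. In 27 of 69 members (39.1%) the 250 bases before the start held an exon of another gene on the other strand, against 16.4% of all promoters. The share among genes tested, the nearer background used for the motifs, was not computed here. Mrpl46 and Mrps11 face each other in this way on chromosome 7. In WT Mrpl46 fell by 0.72, while Mrps11 had a value of -0.19 and did not pass (limma adjusted p = 0.331). Mrps12 faces Sars2, the gene of the mitochondrial seryl-tRNA synthetase, and Mrpl43 faces Twnk, the gene of the mitochondrial DNA helicase.

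The knockout of ciRS-7 gave no call among the members, in either condition. Between N_KO and N_WT, limma called 0 of 78 members, against 5 of 14152 genes (0.0353%), and 0 members had an unadjusted p under 0.05, against 1.81% of all genes. Groups did not overlap for 0 members, against 0.325% of all genes. The changes ran from -0.33 to 0.23 with a median of -0.03, and the 95% interval lay within 0.5 on either side of 0 for 63 members and within 1 for all 78. The smallest p-values belonged to Mrpl53 at -0.28, Mrpl42 at -0.24 and Mrps28 at -0.33 (limma adjusted p = 1.00 for each). Mrpl53 shares 82% of its 50-base words with other genes. In this comparison and those below, the share of all genes with an unadjusted p under 0.05 was less than 0.05. Unchanged genes alone would give about 0.05, so these p-values ran high. The 0 calls therefore do not show that the knockout had no effect.

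Between OGD_KO and OGD_WT, limma called 0 of 78 members, against 4 of 14185 genes (0.0282%), and 1 had an unadjusted p under 0.05, against 1.78%. Groups did not overlap for 0 members, against 0.345% of all genes. That 1 was Mrpl36, at 0.52 ± 0.23 (limma adjusted p = 1.00). Mrpl27 had 0.33 and Mrps23 -0.36. The 95% interval lay within 1 on either side of 0 for 77 of the 78. This comparison shares its libraries with both OGD comparisons.

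The difference between the responses of the 2 genotypes was tested as an interaction over all 20 libraries. It gave 0 calls among 13688 genes, members included (0% called), and 0 members with an unadjusted p under 0.05, against 0.723% of all genes. The median interaction of the members was 0.04, beside -0.01 for all genes. The smallest p-values belonged to Mrpl36, at 0.70 (95% interval -0.03 to 1.43), Mrpl46 at 0.46 (-0.06 to 0.99) and Mrpl27 at 0.42 (-0.12 to 0.97), with limma adjusted p = 1.00 for each. The interval lay within 1 on either side of 0 for 74 members and within 0.5 for 11. For most members differences of more than 0.5 in size thus lay inside the interval. The 0 calls do not show that the genotypes responded alike. Limma with voom weights also called 0 members in both knockout comparisons.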

How the data were processed

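Total RNA of 20 libraries in 4 groups of 5 was analysed from 4 deposited tables, 1 per comparison. The authors deposited log2 CPM, as the values show, and the genome build is mm10, per the submitters' processing notes. The aligner, the counter and the annotation are not given in the sources used here. No label states 2 further steps seen in the values: a clipping of each gene and group at the 10th and 90th percentile, which was undone, and an adjustment for the 5 batch labels, which was not. After the clipping was undone, at least 99.91% of values per library were whole counts within 0.05, and these are called recovered counts.

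Each comparison was fitted in its own table with limma 3.58.1 (R 4.3.3; lmFit, eBayes with trend), two-sided, at a Benjamini-Hochberg adjusted p under 0.05. For the interaction, the recovered counts of all 20 libraries were put on 1 log2 CPM scale (prior count 2) and fitted with the culture as a block (consensus correlation -0.19). Numbers after ± are standard errors unless SD is written. In the OGD comparisons the labels pair libraries by culture (same genotype label, number and batch). The correlation of paired deviations from the group means was -0.656 to 0.047 in WT and -0.77 to -0.075 in KO. Nothing says that cultures came from separate litters, so p-values refer to these samples alone. Their spread is that left after the batch adjustment seen in the values, which was not undone. The fits take libraries as independent, which the values were not, so p-values under OGD could be too small.

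The members and gene lists were chosen with earlier results of these data known. Named members were, per OGD comparison, at most 6 called rises and 6 called falls by size, for the knockout comparisons and the interaction the 3 smallest p-values where none was called, the highest and lowest levels, and 6 chosen for roles; other called members, Mrps11 and Nrf1 were added after their values were seen. Of each other list, up to 2 called genes per direction were named, by size of change. Exon annotation is GENCODE M21. The code was tested on simulated data. Lists of oligodendrocyte, endothelial and mural markers were also fixed: in WT 1 of 7 and 2 of 3 measured rose and 2 and 1 fell, and in KO 3 and 2 rose and none fell. Calls were 42.9% and 100% of these lists in WT, against 44.3% of all genes. In KO they were 42.9% and 66.7%, against 40.9%.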

Additional observations from a re-analysis of the deposited data

Results flagged for a closer look

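In 10 of 148 groups of 5 libraries, 1 library stood apart from the other 4 by Dixon's criterion, which chance meets in about 1 in 20 groups. Mrpl22 was at 0.86 log2 CPM in OGD_WT replicate 4 (the others 1.37 to 1.53) and at 2.66 in N_WT replicate 4 (the others 1.89 to 2.04). Mrpl42 was at 4.05 in N_WT replicate 2 (3.54 to 3.62). Mrpl46 was at 2.06 in OGD_WT replicate 5 (2.52 to 2.59). Mrps6 was at 4.62 in OGD_WT replicate 4 (3.99 to 4.15). Mrpl45 was at 3.81 in OGD_KO replicate 4 (4.04 to 4.05). Aurkaip1 was at 5.75 in OGD_WT replicate 2 (4.97 to 5.17) and at 4.90 in N_WT replicate 1 (4.57 to 4.66). The 16S rRNA mt-Rnr2 was at 18.62 in OGD_KO replicate 5 (17.60 to 17.84), where it took 32% of the recovered counts (18% to 22% in the others).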

How the results depend on the processing

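The count of members called under OGD was 18 in WT and 17 in KO. Values as deposited, with the clipping kept, gave 31 and 30 (58.2% and 55.8% of all genes), total-read scaling 34 and 26 (51.8% and 47.1%), batch 3 cultures alone 11 and 4 (34.5% and 16.3%), and leaving out the cultures alone in their batch 7 and 7 (30.3% and 28%), where fewer samples were fitted. Batch as a covariate gave 10 in KO (33.4%). For that setting and for batch 3 alone, labels 3.1, 3.2 and 3.3 were joined as batch 3. Total-read scaling moved the median of the members to -0.337 in WT and -0.274 in KO. With the culture number as a replicate block the counts were 18 in WT (39.9% of all genes) and 12 in KO (33.6%). Leaving out 1 library gave 12 to 20 in WT (lowest without OGD_WT replicate 3) and 13 to 21 in KO, with medians of -0.083 to -0.035 and -0.033 to 0.029. In both knockout comparisons and the interaction 0 members were called under every alternative run.

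Some directions changed. In WT Mrps18a (-0.01) was 0.01 as deposited, with median-ratio scaling and with 5 batch terms, 0.02 with voom, and -0.07 to 0.09 without 1 library. In KO Mrps18b (0.05) was -0.01 with batch 3 alone, -0.23 with total-read scaling and -0.02 to 0.13 without 1 library, and Mrps18a (0.17) was -0.12 with total-read scaling. Quantile normalization turned mt-Rnr1, called at 0.71 in WT and 0.83 in KO, to -0.13 and -0.07. The cause of these changes was not tested. Of 1234 values of named genes, 1045 kept direction and side of the threshold, 160 lost the call, 16 gained one and 13 changed direction. Median-ratio scaling is no separate alternative for the interaction, whose scale uses it. Calls at under 100 counts per library, such as Mrpl36, rest on few reads.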
